A study of Mus musculus with 6 samples.

Results

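The D cyclins (Ccnd1, Ccnd2, Ccnd3), their kinases Cdk4 and Cdk6, the retinoblastoma family (Rb1, Rbl1, Rbl2) and the transcription factors E2f1 and E2f4 were followed in maps of open chromatin from mouse hematopoietic stem cells. The 10 genes were taken by symbol from the RefSeq annotation, where they are 10 of 49554 genes. Every peak in a gene or within 20 kb of either side of it was collected, and peaks of the 6 libraries that shared at least 1 bp were merged into regions. This gave 105 regions of 84592 in all. A region within 1 kb of either annotated end of a gene was called a gene-end region, 1 elsewhere in the gene a gene-body region, and the remainder distal. There were 13 gene-end, 55 gene-body and 37 distal regions.

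D cyclins are made when growth signals arrive, bind Cdk4 or Cdk6 and switch these kinases on. The kinases phosphorylate the pocket proteins Rb1, Rbl1 and Rbl2, which then let go of E2F factors, and the genes for DNA replication are transcribed. Blood stem cells are mostly out of cycle, and this switch is one of the gates through which they leave quiescence.

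The assay was ATAC-seq: the Tn5 transposase inserts sequencing adapters wherever chromatin is open. About 20000 stem cells per preparation were sorted from bone marrow of C57BL/6 mice, labelled as 12 weeks and 3 months old, as lineage-negative cells with Sca-1, c-Kit and CD150 but no CD48. The 3 libraries labelled Dek_fl came from Dekfl/fl mice, whose Dek alleles carry loxP sites, and the 3 labelled Dek_cKO from Dekfl/fl mice that also carried Tie2-Cre. Both groups thus had the floxed Dek alleles, and the Cre is driven by control DNA of Tek (Tie2), active in blood and endothelial cells and not in stem cells alone. The labels do not say whether libraries came from separate animals, so p-values measure only how far these libraries vary, and that variation may be technical.

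The peak lists differed in ways that touch every count given here. Replicates 1 and 2 of both groups held 52451 to 73173 peaks, and replicate 3 held 23813 (Dek_fl) and 27170 (Dek_cKO) under another threshold. Read depth was unknown, so the lack of a call does not show closed chromatin. Fold enrichment at the summit and −log10 p-value are the authors' own values within each list, so levels are compared as percentiles of the same list, where 100 is the top peak. Of 9 stem cell markers, the Dek_fl libraries had gene-end peaks for 8, 9 and 1, the Dek_cKO libraries for 8, 8 and 4, and only Kit had one in all 6. Of 5 erythroid markers 3 had one in every library, of 5 lymphoid markers 0 to 3, of 6 neutrophil and monocyte markers 1 to 3 and of 5 endothelial markers 2 to 4. Hba-a1, Alas2, Cd3g, Ms4a1, Elane, Ly6g and Cdh5 had none in any library, and the part of other cells in the results was not tested. Dek itself kept a called gene-end peak in all 6 libraries, with −log10 p of 20.4, 48.0 and 52.5 in Dek_fl and 56.2, 27.7 and 41.1 in Dek_cKO, and a peak list cannot show the excision. At Tek, the gene-end peak had −log10 p of 260.1, 575.8 and 56.6 in Dek_fl and 32.9, 20.5 and 8.59 in Dek_cKO, and a peak in its body was called in 3 Dek_fl and 0 Dek_cKO libraries. Tek is the gene whose control DNA the Cre transgene carries, so group directions are given as labelled and would turn if the labels were exchanged.

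Start-site DNA shows how unlike the members are. RefSeq (GRCm38.p6) gave promoter windows, from 250 bases before to 50 after a start, for 7 starts of 6 members. Ccnd3 has 2 of them in these windows, and the 250 bases before each are printed to compare a start called in 3 libraries with one called in 6. Both lie on the plus strand of chromosome 17, at chr17:47504801-47505050 and chr17:47593217-47593466, and the capitals mark CpG dinucleotides.

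Ccnd3 start 1: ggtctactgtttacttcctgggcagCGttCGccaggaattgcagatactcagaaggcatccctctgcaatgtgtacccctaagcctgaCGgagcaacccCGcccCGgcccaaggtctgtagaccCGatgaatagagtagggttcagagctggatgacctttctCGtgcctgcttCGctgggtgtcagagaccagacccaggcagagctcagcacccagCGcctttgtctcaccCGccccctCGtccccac

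Ccnd3 start 2: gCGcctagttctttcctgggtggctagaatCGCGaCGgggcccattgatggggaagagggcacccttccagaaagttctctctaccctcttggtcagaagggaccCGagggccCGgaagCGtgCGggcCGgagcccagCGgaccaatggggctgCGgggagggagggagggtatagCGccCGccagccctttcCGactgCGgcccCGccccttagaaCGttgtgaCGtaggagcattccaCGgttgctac

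The first stretch held 11 CpG, more than 65.2% of all promoter windows, and the second 19, more than 81.0%. Over all 32619 windows of the genome, 32.9% had a peak in all 6 libraries. This share was 4.01% with 0 to 4 CpG, 23.4% with 5 to 9, 66.4% with 10 to 19 and 75.9% with 20 or more, so the first Ccnd3 start lies in a class of windows that are mostly called.

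The next 3 stretches are shown for their motifs, which were searched on both strands. The first holds the E-box CACGTG 4 times (Cdk4, chr10:127063285-127063534, plus strand). It lies under the gene-end region with the highest mean percentile of fold among those called in all 6 libraries. The second holds the E-box once (Cdk6, chr5:3343643-3343892, plus strand), and the third holds an E2F motif, TTTCGCGC (Rbl1, chr2:157204535-157204784, minus strand). Capitals mark the motif.

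Cdk4: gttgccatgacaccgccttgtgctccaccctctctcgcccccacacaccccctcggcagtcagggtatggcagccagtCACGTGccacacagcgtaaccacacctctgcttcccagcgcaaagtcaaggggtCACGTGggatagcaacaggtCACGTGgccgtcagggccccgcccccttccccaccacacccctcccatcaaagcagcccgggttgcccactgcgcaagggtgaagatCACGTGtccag

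Cdk6: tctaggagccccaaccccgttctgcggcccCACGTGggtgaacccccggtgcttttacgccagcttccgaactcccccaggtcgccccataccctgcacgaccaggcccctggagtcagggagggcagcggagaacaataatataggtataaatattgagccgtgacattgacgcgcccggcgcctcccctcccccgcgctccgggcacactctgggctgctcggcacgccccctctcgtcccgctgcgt

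Rbl1: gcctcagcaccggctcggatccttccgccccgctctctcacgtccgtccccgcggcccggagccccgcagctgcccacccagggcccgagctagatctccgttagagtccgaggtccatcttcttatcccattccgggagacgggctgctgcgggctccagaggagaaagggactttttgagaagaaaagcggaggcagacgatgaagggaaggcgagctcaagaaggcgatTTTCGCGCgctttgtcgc

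In Cdk4 the E-boxes began 172, 118, 98 and 11 bases before the start, and 6.06% of all windows held at least 1. In Cdk6 the E-box began 220 bases before it. The E2F search used TTTGGCGC, TTTGCCGC, TTTCGCGC and TTTCCCGC, found in 1.87% of all windows, and the Rbl1 copy began 18 bases before the start. A match is a description of letters and not a bound site. Peaks covered all 300 bases of the Cdk4, Cdk6 and Rbl1 windows in all 6 libraries, with summits from 51 bases before to 44 after the Cdk4 start and from 106 before to 11 after the Rbl1 start. The Cdk6 summits lay 315, 315 and 404 bases after the start in Dek_fl. In Dek_cKO they lay 380 after, 39 before and 380 after it.

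At their ends, 8 of the 10 genes had a called peak in every library, where 48.8% of 21631 protein-coding genes did. The exceptions were Ccnd1 and Ccnd3, whose gene-end peaks were called in no replicate 3 list of either group. The share of members with a gene-end peak was 93.3% ± 11.5 (SD, n = 3) in both groups. The difference was 0 percentage points (exact permutation test, two-sided, p = 1.0, where the smallest possible p was 0.1). Ranked by fold, the members' gene-end regions ran from near the foot of the lists at the D cyclins and Cdk6 to the upper part at Cdk4, Rbl1 and Rbl2. Among 11140 gene-end regions called in all 6 libraries, whose median percentile of fold was 76.0, that of Ccnd2 was above 0.889% and that of Cdk6 above 2.01%. That of Rbl2 was above 48.8%, that of Rbl1 above 52.6% and that of Cdk4 above 62.1%. By −log10 p, Ccnd2 was above 21.6% of these regions, Cdk6 above 16.1%, Rbl2 above 58.5%, Rbl1 above 60.0% and Cdk4 above 90.9%.

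**Figure D1:**
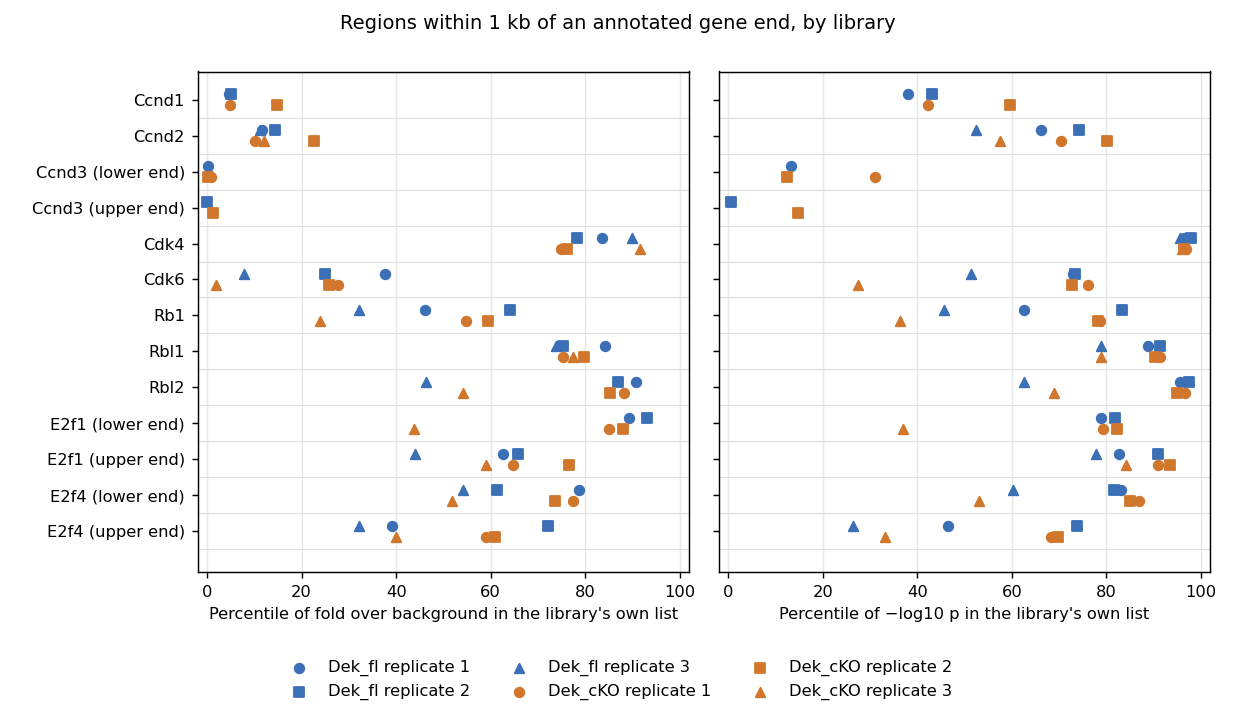
Within-list percentile (horizontal axes, percent) of fold enrichment (left) and −log10 p (right) at the 13 gene-end regions (rows), 1 point per library in which the region was called, with colour for the group and shape for the replicate. By fold, Cdk4 points lie between 75.0 and 91.7 and Ccnd2 points between 10.2 and 22.6, and the groups overlap at each region called in all 6 libraries, while by −log10 p the Ccnd2 points lie between 52.5 and 80.1.

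Ccnd1, a D cyclin induced by mitogens in many tissues, had a peak of low fold at its upper end (chr7:144939332-144939876, gene at chr7:144929931-144939831, mm10). In replicates 1 and 2, fold was 2.57 and 2.37 for Dek_fl and 2.52 and 3.22 for Dek_cKO, with percentiles of 4.59, 4.98, 4.82 and 14.8. By −log10 p the percentiles were higher, at 37.9, 43.1, 42.3 and 59.7. The groups overlapped in fold. A far stronger region lay 14154 bp from the gene (chr7:144914383-144915777), at the end of the neighbouring gene LTO1 and of Bc1. Its fold was 7.79, 9.16 and 13.3 in Dek_fl and 9.72, 11.1 and 14.5 in Dek_cKO, between percentiles 92.0 and 97.7. Ccnd1 thus had 1 region in all 6 libraries, and that region is at another gene's end.

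Ccnd2, another D cyclin, had a gene-end region (chr6:127150434-127152891, gene at chr6:127125162-127152188) that also lies in the gene 9330179D12Rik. Fold there was 2.90, 2.83 and 5.07 in Dek_fl and 2.88, 3.69 and 5.40 in Dek_cKO. The percentile of fold was low in all 6 libraries, from 10.2 to 22.6, while the percentile of −log10 p was from 52.5 to 80.1. The summit fold and the p-value therefore place this region differently, and the groups overlapped on both. Fold was higher in the 2 replicate 3 lists than in the other 4, as it was for the median peak of those lists.

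Beyond Ccnd2, the region at the end of Tigar, 15070 bp away, stood between percentiles 87.9 and 98.2 of fold. A distal region with no annotated gene end within 1 kb, 10267 bp from Ccnd2 (chr6:127162455-127163730), had fold of 5.04, 6.10 and 10.5 in Dek_fl and 7.34, 7.29 and 10.7 in Dek_cKO. Its percentiles of 62.6 to 79.2 made it the highest of the 18 distal regions away from other gene ends, by a mean of 73.2. The gene-body region at chr6:127142104-127143713 had percentiles from 20.9 to 57.2. In both, the groups overlapped in percentile.

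Ccnd3, the D cyclin best known in lymphocytes and red cell precursors, showed little at its first start and more inside the gene (chr17:47505051-47599689). The region over the first start (chr17:47504864-47505292) had fold of 1.98 in Dek_fl replicate 1, and 2.08 and 1.90 in Dek_cKO replicates 1 and 2, and was not called in the other 3 libraries. Every percentile of fold there was under 1, at 0.224, 0.874 and 0.219, while those of −log10 p were 13.2, 31.2 and 12.5. The region at the upper end, near Bysl, was called only in Dek_fl replicate 2 (fold 1.58) and Dek_cKO replicate 2 (fold 2.25).

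The second Ccnd3 start, whose 19 CpG are printed above and which is named for its start and not its rank, lay in a region called in all 6 libraries (chr17:47592957-47594378). Fold was 4.66, 3.75 and 7.75 in Dek_fl and 4.70, 4.73 and 5.66 in Dek_cKO, with percentiles of 55.8, 33.7 and 48.6 against 44.7, 41.1 and 15.1. Percentiles of −log10 p were higher, at 85.0, 80.0 and 80.6 in Dek_fl and 86.1, 82.8 and 50.3 in Dek_cKO. Dek_cKO replicate 3 was the lowest by either rank, and the groups overlapped on both. Of the 11 gene-body regions of Ccnd3, 7 were called in all 6 libraries. Of these the one at chr17:47521300-47522207 had the highest mean percentile of fold. Its values were 69.0, 69.9 and 34.2 in Dek_fl and 64.6, 68.1 and 33.7 in Dek_cKO, low in both replicate 3 lists. The strongest regions near Ccnd3 belonged to neighbours, at Taf8, 2169 bp away, with percentiles of 86.2 to 99.4, and at Bysl and Med20, 10947 bp away, with 78.4 to 93.1.

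**Figure D2:**
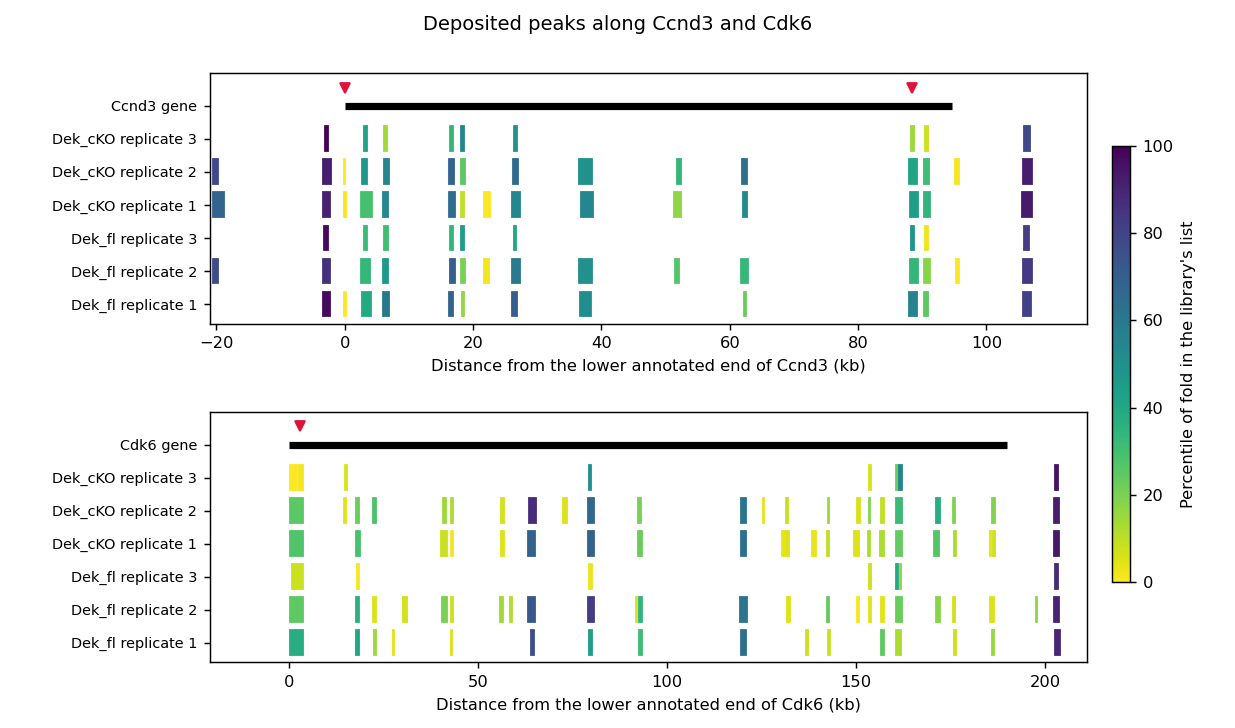
Deposited peaks along Ccnd3 (top) and Cdk6 (bottom) with 20 kb on either side, by library (rows), against distance from the lower annotated end of the gene (kb). Black bars are the genes, red triangles the RefSeq starts with a promoter window, and colour the within-list percentile of fold; at Ccnd3 the first start has a peak in 3 libraries and the second in 6, and Cdk6 has 7 and 10 peaks in replicate 3 against 16 to 24 in replicates 1 and 2.

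Cdk4, a kinase partner of all D cyclins, had the highest mean percentile among the gene-end regions called in all 6 libraries (chr10:127062791-127064353, gene at chr10:127063535-127067288). Fold was 6.62, 6.43 and 12.8 in Dek_fl and 6.92, 7.52 and 14.0 in Dek_cKO. Percentiles of fold were 83.5, 78.2 and 89.9 against 75.0, 76.3 and 91.7, and those of −log10 p were between 95.5 and 97.9. No library departed from this high level, and the groups overlapped. The Cdk4 percentiles did not overlap those of Rb1, Cdk6 or Ccnd2, while they overlapped those of Rbl1 and Rbl2. In replicates 1 and 2 of both groups, the Rbl2 gene end and the lower E2f1 end ranked above Cdk4 by fold. For Rbl2 these percentiles were 90.8 and 86.9 in Dek_fl and 88.3 and 85.2 in Dek_cKO. In both replicate 3 lists Cdk4 ranked above the Rbl2 gene end, so its highest mean rests on those lists. The ends of the neighbours of Cdk4 were weaker, with percentiles of 28.7 to 65.3 at Agap2, 7715 bp away, and 1.96 to 64.0 at Tspan31 and A730063M14Rik, 2069 bp away.

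Cdk6, the other D cyclin kinase, known in blood stem cells for its part in the exit from quiescence, had a broad and low gene-end region of 3410 bp (chr5:3341189-3344598, gene at chr5:3341004-3531008) that also lies at the end of Gm36470. Fold was 3.87, 3.31 and 4.78 in Dek_fl and 3.81, 3.85 and 4.03 in Dek_cKO. Percentiles of fold were 37.6, 25.0 and 7.85 against 27.6, 25.7 and 1.79, while those of −log10 p were 73.0, 73.5 and 51.3 against 76.0, 72.6 and 27.5. The region ranked higher by p-value than by summit fold, and was lowest by either rank in Dek_cKO replicate 3, where it covered 2044 bp against 2802 to 3405 bp elsewhere.

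Cdk6 held 31 of the 105 regions, 28 of them in its body, and only 4 were called in all 6 libraries. Its peaks numbered 16, 24 and 7 in Dek_fl and 22, 23 and 10 in Dek_cKO, so the replicate 3 lists held the fewest in both groups. The gene is the longest of the 10, and per 100 kb its 13.5 regions were near those of Cdk4 (13.7) and Ccnd1 (12.0). The body region at chr5:3419925-3421690 varied widely, with percentiles of 44.3, 82.2 and 2.84 in Dek_fl and 68.9, 66.6 and 50.7 in Dek_cKO. That at chr5:3501444-3503232 had percentiles of 12.7 to 55.3. Dek_fl replicate 2 was the highest at the first of these and Dek_cKO replicate 3 at the second, and the groups overlapped at both.

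Rb1, the founding pocket protein, had a gene-end peak of middle rank (chr14:73324442-73326784, gene at chr14:73192858-73325951). Fold was 4.22, 5.40 and 6.52 in Dek_fl and 5.38, 6.02 and 6.26 in Dek_cKO, with percentiles of 46.1, 64.0 and 32.1 against 54.8, 59.5 and 23.8. The replicate 3 lists were lowest in both groups, and the groups overlapped. By fold, a region deep in the Rb1 body (chr14:73222161-73223279) ranked higher than the gene end in every library. Its percentiles were 51.7, 97.1 and 71.0 in Dek_fl and 78.0, 90.1 and 77.3 in Dek_cKO. Dek_fl replicates 1 and 2 were the lowest and the highest of all 6. The order by −log10 p differed. In replicates 1 and 2 the gene end was higher, at 19.1 and 64.7 in Dek_fl and 52.7 and 47.4 in Dek_cKO. The body region had 11.2 and 56.6 against 33.6 and 40.4 there, and was the higher in both replicate 3 lists. Another body region lies at the end of Lpar6, a receptor gene inside Rb1, with percentiles of 12.3 to 76.1, and a distal one 16240 bp away in Rcbtb2 had 58.1 to 76.5.

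Rbl1, a pocket protein that itself is known as an E2F target, had its gene-end peak over the printed E2F motif (chr2:157203816-157205363, gene at chr2:157145893-157204534). Fold was 6.68, 6.22 and 10.2 in Dek_fl and 6.96, 7.91 and 11.3 in Dek_cKO. Percentiles lay between 73.9 and 84.1 in all 6 libraries, the narrowest range among the 9 gene-end regions called in all of them. It was the sparsest locus, with 5 regions, or 5.07 per 100 kb, and its 1 other region in all libraries was at Samhd1, 9976 bp away, with percentiles of 5.32 to 57.3.

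Rbl2, the pocket protein most abundant in resting cells, had fold of 7.52, 7.26 and 7.56 in Dek_fl and 8.37, 8.61 and 8.65 in Dek_cKO at its gene end (chr8:91069571-91071352, gene at chr8:91070057-91123844). The 3 Dek_cKO folds were above the 3 Dek_fl folds, as in 5 of the 37 member regions called in all libraries and in 13.2% of all such regions (0 of the 37 and 0.0152% in the opposite direction), so that share of the members was near the background. As percentiles, which set each list to 1 scale, the values were 90.8, 86.9 and 46.3 against 88.3, 85.2 and 54.2, and the groups overlapped. Both replicate 3 lists placed it near their middle and the other 4 near their top. Its body region at chr8:91081431-91082861 had percentiles of 6.33 to 70.8, and the region at the end of Aktip, 9404 bp away, had 91.4 to 98.4, the highest mean near any member (95.1).

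E2f1, an activating E2F, had regions at both ends (gene at chr2:154559400-154569892). At its upper end (chr2:154568626-154570911) the highest peak had fold of 5.04, 5.51 and 7.42 in Dek_fl and 6.08, 7.56 and 9.11 in Dek_cKO. Its percentiles were 62.6, 65.7 and 44.0 against 64.6, 76.5 and 59.0. The Dek_cKO mean percentile was 9.26 higher and the groups overlapped. Without Dek_fl replicate 3 the gap was 2.55 and without Dek_cKO replicate 2 it was 4.37, so it varied with single libraries, up to 13.4 without Dek_fl replicate 2. The lower end, shared with Necab3 (chr2:154557998-154559430), was called in 5 libraries, with percentiles of 89.2 and 93.0 in Dek_fl replicates 1 and 2 and of 85.0, 88.1 and 43.9 in Dek_cKO. Its distal region at Actl10, 6385 bp away, had percentiles of 29.7 to 75.2. The E2f1 promoter window held 43 CpG and none of the E2F motifs searched, which says only that these letters are not in it. In Dek_fl replicates 1 and 2 and Dek_cKO replicate 2, a separate, weaker peak of the upper-end region touched this window. Its fold was 2.83, 2.73 and 3.58, with percentiles of 10.6, 12.0 and 21.4. It covered 107, 113 and 71 of the 300 bases. In Dek_fl replicate 3 and Dek_cKO replicates 1 and 3, the highest peak covered all 300 bases, with its summit upstream of the window.

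E2f4, the E2F that pairs with Rbl1 and Rbl2 in resting cells, was the most evenly called gene, with the same 4 regions in all 6 libraries (gene at chr8:105297663-105305370). Its lower end, also near Exoc3l (chr8:105295993-105298397), had fold of 6.16, 5.24 and 8.18 in Dek_fl and 7.15, 7.26 and 8.47 in Dek_cKO, with percentiles of 78.7, 61.2 and 54.2 against 77.3, 73.5 and 51.8. Its upper end, also near Elmo3 (chr8:105304954-105306622), had percentiles of 39.1, 72.1 and 32.2 against 59.0, 60.8 and 39.9. At both ends the groups overlapped. The region 6305 bp away, at ends of Exoc3l and 4931428F04Rik, ranked above both ends with 79.7 to 97.9, and that 18097 bp away had 6.50 to 67.7.

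Across the family, 37 regions (35.2%) were called in all 6 libraries, where 23.3% of all regions were. By place these were 9 of 13 gene-end, 13 of 55 gene-body and 15 of 37 distal regions. With places set by any annotated gene, members or not, they were 22 of 35 regions at a gene end (62.9%, against 50.7% of all such regions), 15 of 62 in a gene body (24.2%, against 14.3%) and 0 of 8 outside genes (0%, against 12.6%). Of the 15 distal ones, 12 lay within 1 kb of another gene's end. Among all distal regions, the 19 at a neighbour's end had a median percentile of 49.2 and the 18 elsewhere 32.2. The highest mean percentile was 95.1 at a neighbour's end and 73.2 elsewhere. There were 15 regions in a single library (14.3%, against 16.1% of all regions) and 20 in replicates 1 and 2 of both groups but not in replicate 3 (19.0%, against 25.7%).

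**Figure D3:**
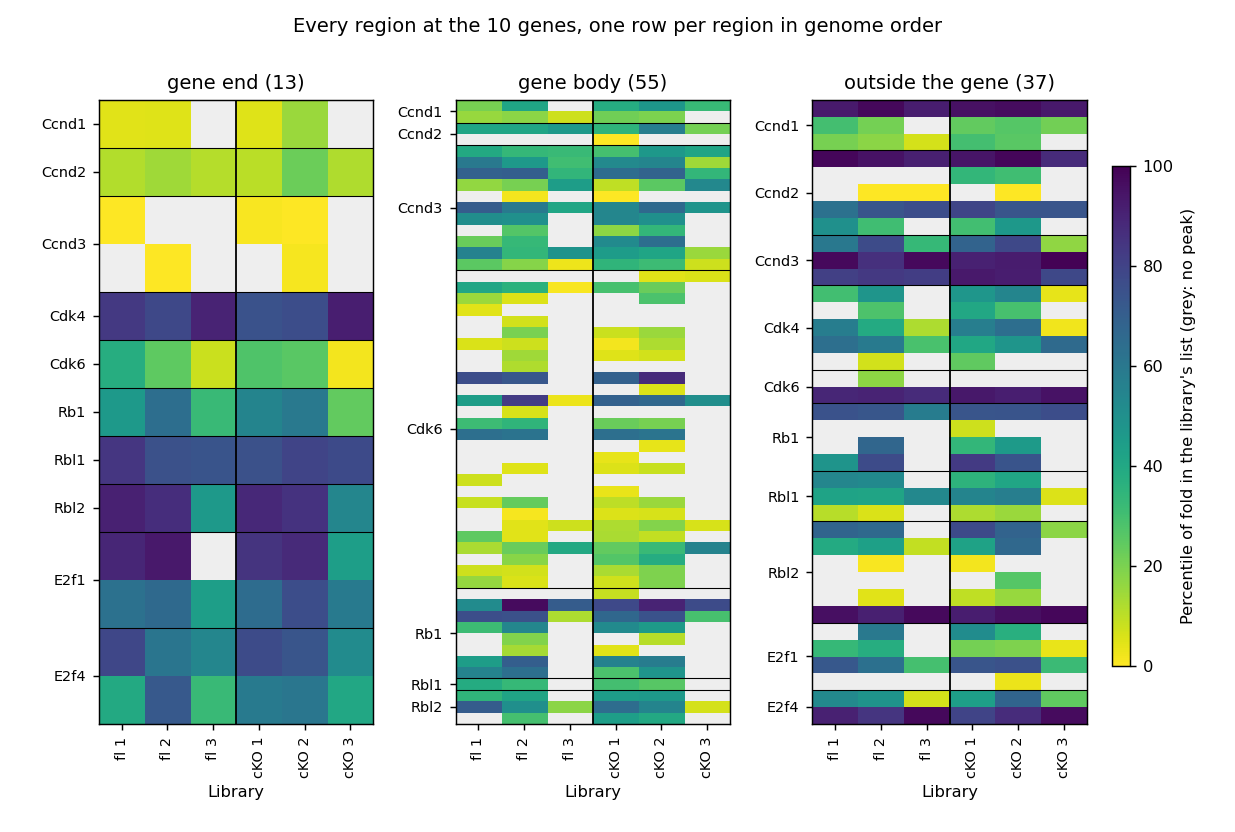
Heat map of all 105 regions (rows, in genome order within each gene) by library (columns), in panels for 13 gene-end, 55 gene-body and 37 distal regions; colour is the within-list percentile of fold (percent) and grey means no called peak. Dark rows in the distal panel mark regions at neighbours' ends such as Aktip, and many Cdk6 gene-body rows are grey in both replicate 3 columns.

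The comparison of Dek_cKO with Dek_fl asked whether loss of Dek, a chromatin-binding nuclear protein, altered accessibility at these genes. Peaks at the members numbered 73, 93 and 44 in Dek_fl and 91, 92 and 49 in Dek_cKO. The means were 70.0 ± 24.6 and 77.3 ± 24.5 (SD, n = 3), a log2 ratio of 0.14 (exact permutation test, two-sided, p = 0.70). Adjusted by Benjamini-Hochberg over this and the gene-end share, the permutation p was 1.0 for each of the 2 comparisons. The groups overlapped, and replicate 3 was lowest in each. With lists shortened to the 23809 peaks of highest −log10 p, the counts were 41, 41 and 44 in Dek_fl and 38, 40 and 40 in Dek_cKO, a log2 ratio of -0.095 in the other direction (exact permutation p = 0.1, the smallest possible), and without Dek_fl replicate 3 the ratio was -0.10. Members' peaks made up 0.126% to 0.185% of a list.

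**Figure D4:**
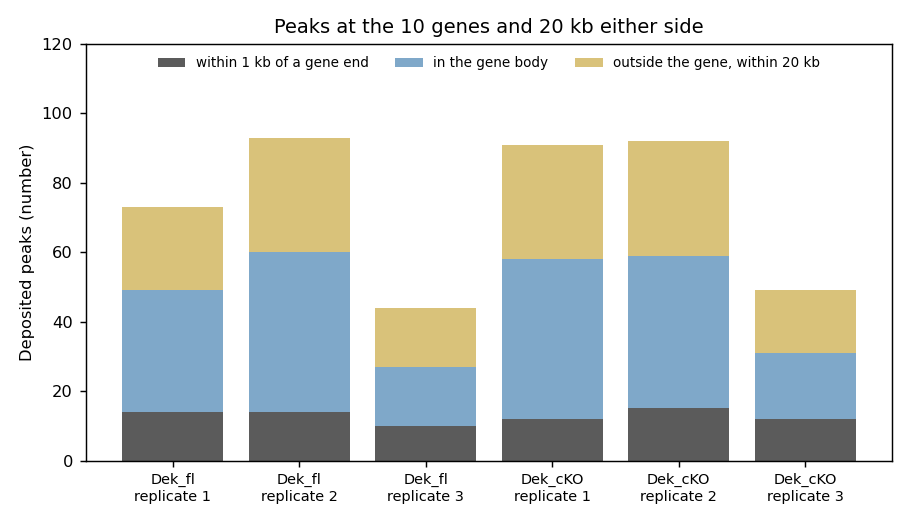
Number of peaks at the 10 members (vertical axis, from 0) in each library (horizontal axis), stacked by gene end, gene body and distal. Totals are 73, 93 and 44 in Dek_fl and 91, 92 and 49 in Dek_cKO, and gene-body peaks fall from 35 or more in replicates 1 and 2 to 17 and 19 in replicate 3.

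No member region was called in every library of 1 group and in 0 libraries of the other. Over all regions 0.104% were so in the Dek_cKO direction and 0.00355% in the Dek_fl direction, so few or none would be found among 105 at that rate. Called in 2 libraries of Dek_cKO and 0 of Dek_fl were 2 of the 105, where 3.08% of all regions were, and 0 in the opposite direction, where 0.340% were. The 2 regions, named after their values were seen, were chr6:127122425-127122733, 2429 bp from Ccnd2, with fold of 4.11 in both replicates 1 and 2, and chr5:3355494-3356087 in the Cdk6 body, with fold of 2.66 and 4.75 in replicates 2 and 3.

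For the 37 regions called in all libraries, ranks of fold were turned into normal scores and fitted with limma together with all 19683 such regions. With Benjamini-Hochberg adjustment, 0 of the 37 and 0 of the 19683 passed 0.05, 0% of the background in either direction. At an unadjusted p under 0.05 there were 0 of the 37 and 0.442% of all. With the replicate number as a block, limma gave 0 of the 37 and 1 of the 19683 past the adjusted threshold, and 0 of the 37 and 4.44% of all at an unadjusted p under 0.05. The smallest adjusted p among the members was 1.0. The members' median difference, Dek_cKO minus Dek_fl, was -0.017 in score units (SD of the list), beside -0.018 over all regions, and 17 of the 37 differences were positive (45.9%, against 47.3%).

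The largest differences did not pass the test. They were 0.63 (SE 0.54) at the Cdk6 body region chr5:3419925-3421690 and -0.49 (SE 0.37) at the second start of Ccnd3, with -0.41 (SE 0.33) at the Cdk6 gene end. With the block, the SE at the first of these was 0.32 (limma, unadjusted p = 0.057, adjusted p = 1.0 by Benjamini-Hochberg). At the gene ends of Ccnd2, Cdk4, Rb1, Rbl1, Rbl2 and E2f1 the differences were -0.02 (SE 0.35), -0.19 (SE 0.47), -0.15 (SE 0.30), -0.12 (SE 0.32), -0.10 (SE 0.37) and 0.21 (SE 0.29). Both E2f4 ends gave 0.02 (SE 0.31 and 0.34). A p above the threshold does not show that the groups were alike, and standard errors of this size leave room for differences in either direction.

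**Figure D5:**
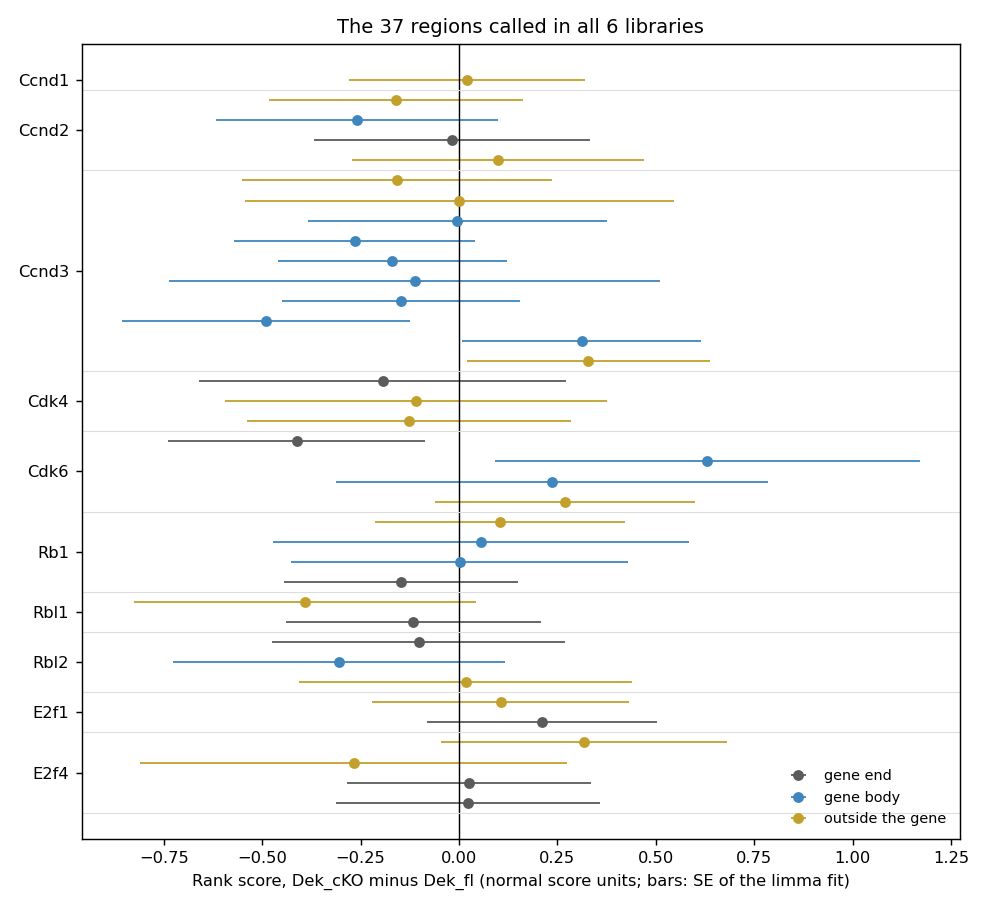
Difference in normal score of the fold rank, Dek_cKO minus Dek_fl (horizontal axis), for the 37 member regions called in all 6 libraries (rows, by gene, coloured by place), with bars of 1 SE from the limma fit. Differences run from -0.49 to 0.63 on both sides of 0, and none passed the test.

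In 1 of the 37 regions the percentiles of the groups did not overlap, higher in Dek_cKO, where 2.40% of shared regions did so, and in 0 the Dek_fl values were all higher, where 0.701% did. It lies 12329 bp beyond Cdk6, at the end of Fam133b (chr5:3543337-3544786), with fold of 7.32, 7.62 and 12.3 in Dek_fl and 9.21, 9.69 and 15.1 in Dek_cKO. Its percentiles of fold were 89.4, 89.9 and 87.6 against 93.4, 91.6 and 95.3. By percentile of −log10 p (91.6, 95.9 and 87.9 against 96.8, 93.8 and 94.0) the groups overlapped, as they did by fold in lists of equal length. Its score difference was 0.27 (SE 0.33, limma adjusted p = 1.0 by Benjamini-Hochberg).

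Other genes of the same switch were read from a list of 28: cyclins E and A with Cdk2, the Cdk-activating kinase, further E2F factors and their DP partners, the DREAM complex (which represses cell cycle genes in resting cells) and the Cdk inhibitors. A gene-end peak was called in all 6 libraries for 22 of the 28, where 48.8% of protein-coding genes had one, and in none for Skp2, a ubiquitin ligase subunit that removes Cdkn1b, and Cdkn1a, a Cdk inhibitor, both named after their values were seen. Per library the number called was 25, 26 and 24 in Dek_fl and 26, 26 and 22 in Dek_cKO. The 26 shared gene-end regions of 23 of these genes gave 0 past the limma threshold in either direction with Benjamini-Hochberg adjustment, and 0 at an unadjusted p under 0.05. Their differences ran from -0.69 to 0.59 with a median of -0.18, and 7 of the 26 were positive. Over all shared regions the median was -0.018 and 47.3% were positive. That background also holds gene bodies and regions outside genes. Its values for gene ends alone were not computed, so whether the partners differ from other gene ends was not tested. None of their 36 gene-end regions was called in 3 libraries of one group and 0 of the other.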

How the data were processed

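ATAC-seq peak lists of 6 libraries (3 Dek_fl, 3 Dek_cKO) were used, 1 list per library, called separately. The submitters' processing notes name MACS2, Bowtie2, Picard and mm10. Their settings, and any Tn5 shift, were not given in the sources used here. The deposited lists hold, per peak, a score, a fold (ratio of summit signal to local background), a −log10 p-value and a −log10 q-value, all the authors' values. In the deposited lists the score equalled 10 times the −log10 q-value in replicates 1 and 2 and 10 times the −log10 p-value in replicate 3 (within 1 unit, 100% of peaks), so replicate 3 of both groups was made differently. The series text speaks of duplicates and the labels give 3 libraries per group.

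Autosomal and X peaks were merged at 1 bp overlap. A library's value in a region is its highest peak, and percentiles are ranks among all peaks of that list. A region counts when its merged span reaches the 20 kb window. Gene positions, promoter sequences and symbols came from RefSeq GRCm38.p6, matched by symbol for 10 of 10 members, and coordinates are 1-based. Exons, introns and UTRs were not annotated. Tests were limma 3.58.1 (R 4.3.3) on normal scores of ranks over 19683 shared regions, with Benjamini-Hochberg adjustment. Exact permutation ran over 20 assignments (numpy 2.4.6) or, with the replicate block, over swaps within replicate numbers. The limma script was tested on simulated shifts larger than any member difference given here. Smaller shifts were not tried, so that simulation does not tell whether differences of the reported size would be found.

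Members and lists were chosen with earlier results of these data known. All 10 members are named, with every gene-end region, up to 3 other regions per member (the highest mean percentile among those called in all libraries) and any region in 3 libraries against 0. Outside that rule, the region at the second Ccnd3 start and the 2 regions in 2 libraries against 0 were named after their values were seen. Partners were to be named where they passed the test. Replicate numbers come from the labels. Correlations of deviations between same-numbered libraries were 0.27, 0.52 and 0.74, all over 0.1, and by that limit the numbers were used as a block. Dek_cKO replicate 1 correlated more with Dek_fl replicate 2 (0.57), and Dek_fl replicate 1 more with Dek_cKO replicate 2 (0.31). Every pair of a replicate 3 library with another number was negative. The check therefore cannot tell pairing by number from the difference between replicate 3 and the remaining lists. Alternatives were ranks by −log10 p or q, equal-length lists, a −log10 q of at least 10, a stricter merging overlap, a 5 kb window, gene ends within 2 kb, a batch term, the replicate block, within-batch values and leaving out each library. Peaks on other chromosomes, 3 to 25 per list, were left out.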

Additional observations from a re-analysis of the deposited data

How the results depend on the processing

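The limma count of 0 of the shared member regions held under ranks by −log10 p or q, lists of equal length, a −log10 q of at least 10, a stricter merging overlap, a batch term, replicates 1 and 2 alone and with each library left out (range 0 to 0). Over all shared regions the count was also 0 in each of these settings, so a member count of 0 does not set the members apart. At an unadjusted p under 0.05, replicates 1 and 2 alone gave 1 higher and 2 lower of 67 member regions. Over all 47499 regions shared there, 1163 were higher and 566 lower. Leaving out Dek_fl replicate 2 gave 1 higher and 1 lower of 37 member regions, beside 237 higher and 53 lower of all 19688. With the replicate block, the count was again 0 of 37 (1 of all 19683), and the log2 ratio of peak numbers was 0.14 (exact permutation by swaps within replicate numbers, p = 0.50). Those swaps give fewer assignments than the 20 of the main test, so the smallest possible p lies above 0.1. The difference in gene-end share was 0, so the block changed no call at the members.

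The log2 ratio of peak numbers turned to -0.095 in lists of equal length and to -0.10 without Dek_fl replicate 3, and with 1 library left out it ranged from -0.10 to 0.40. It was 0.14 in replicates 1 and 2 and 0.16 in replicate 3. The gene-end share difference ranged from -6.67 to 6.67 percentage points with 1 library left out. Member regions called in every library of 1 group and in 0 of the other numbered 1 without Dek_cKO replicate 1 and 1 without Dek_cKO replicate 3 (range 0 to 1 over libraries left out). There was 1 in replicates 1 and 2. In replicate 3, where 1 library stands against 1, there were 13 of 52, 8 in Dek_cKO and 5 in Dek_fl. Fewer libraries make this rule easier to meet. The share over all regions was not computed for these subsets, so the counts cannot be set against a background. Of 87 alternative values of the gene-end percentile differences, 78 moved by less than the spread between libraries and 9 by more. Some of the 78 could not move, as where the library left out had no call at Ccnd1 or Ccnd3, and −log10 q repeated −log10 p. A move within the spread could also reverse the sign. Rbl2 went from 1.24 to -12.9 without Dek_fl replicate 3, and Rb1 from -1.33 to 9.79 without Dek_cKO replicate 3. Lists of equal length gave no value for the Ccnd1 and Ccnd3 gene ends, nor did leaving out Dek_fl replicate 1 for Ccnd3, and the limma test was not possible in replicate 3 alone. Unknown depth limits all absent calls.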
